A study of Mus musculus with 2 samples.

Results

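The 10 immediate early genes Fos, Fosb, Jun, Junb, Egr1, Egr2, Ier2, Ier3, Atf3 and Dusp1 were followed in mouse C2C12 myotubes carrying either of 2 adenoviral vectors. The genes were taken by name from a list that was drawn up with earlier results of these data known, with no threshold on their values, and are 10 of the 19938 genes that had a probe set assigned to a single gene. Each of the 10 had 1 such probe set. C2C12 is a myoblast line that fuses into multinucleated myotubes when serum is withdrawn. Both cultures were grown in 10% fetal bovine serum, differentiated for 7 days in 2% horse serum, and then exposed to virus for 48 h (multiplicity of infection 30). The control culture received Ad-DsRed, which encodes a red fluorescent protein, and the other received Ad-caERα, which encodes a constitutively active estrogen receptor α. Total RNA (150 ng) was hybridised to Affymetrix arrays, 1 array per vector. Both cultures carried an adenovirus, and uninfected cells were not analysed here. The sources used here do not give the promoter that drives each insert, the part of the receptor encoded or the time of the last medium change before harvest.

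Immediate early genes are transcribed within minutes of a growth factor, serum or stress signal, without new protein synthesis, and their mRNAs are short-lived. Signals that reach the ERK, JNK and p38 MAP kinases activate serum response factor with its ternary complex partners, CREB and AP-1 itself at the promoters of these genes. Some of the induced proteins, among them the phosphatase Dusp1, then switch the kinases off and so close a feedback loop. In skeletal muscle, immediate early genes are known for their brief induction by contraction, injury and serum. An RNA sample therefore records their level at the moment of harvest, here after 48 h of infection.

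Promoter sequence from RefSeq (build GRCm38.p6) was listed for 8 of the 10 genes, and the windows of the 2 lowest and the 3 highest of those 8 by difference are shown, so that the windows of genes at both ends of the set can be read side by side. Each is the 250 bases upstream of an annotated gene start, 5′ to 3′ on the gene's strand. For Egr2, which has several annotated starts, the window with the most matches listed first is given. Capitals mark matches on either strand to the following short motifs. TGACG is the core of the cyclic AMP response element, which CREB and ATF proteins bind. TATAAA is the TATA box that places the start of transcription. TGANTCA is the site of AP-1. GCGNGGGCG is the site of Egr proteins. Also searched were the CArG box bound by serum response factor and the palindromic estrogen response element, by name.
Fos, chr12:85473640-85473889, plus strand: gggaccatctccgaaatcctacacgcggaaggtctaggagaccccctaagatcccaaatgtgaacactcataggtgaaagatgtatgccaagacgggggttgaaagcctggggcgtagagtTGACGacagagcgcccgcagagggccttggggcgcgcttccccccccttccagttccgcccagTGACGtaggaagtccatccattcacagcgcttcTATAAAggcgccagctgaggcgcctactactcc
Dusp1, chr17:26508473-26508722, minus strand: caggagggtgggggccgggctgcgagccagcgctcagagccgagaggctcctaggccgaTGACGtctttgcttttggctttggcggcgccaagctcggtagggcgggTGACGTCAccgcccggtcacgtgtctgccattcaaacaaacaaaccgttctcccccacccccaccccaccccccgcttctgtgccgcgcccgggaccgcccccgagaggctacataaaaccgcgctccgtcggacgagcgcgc
Egr2, chr10:67537619-67537868, plus strand: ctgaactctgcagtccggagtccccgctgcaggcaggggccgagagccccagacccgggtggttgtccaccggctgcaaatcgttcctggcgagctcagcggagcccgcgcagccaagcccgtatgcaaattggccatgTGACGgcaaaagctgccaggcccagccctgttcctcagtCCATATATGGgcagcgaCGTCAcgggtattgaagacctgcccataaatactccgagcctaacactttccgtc
Atf3, chr1:191183334-191183583, minus strand: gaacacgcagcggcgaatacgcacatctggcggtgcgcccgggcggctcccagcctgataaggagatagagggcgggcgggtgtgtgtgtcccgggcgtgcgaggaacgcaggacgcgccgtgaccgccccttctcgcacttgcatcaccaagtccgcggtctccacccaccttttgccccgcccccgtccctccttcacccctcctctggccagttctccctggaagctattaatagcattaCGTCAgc
Ier3, chr17:35821463-35821712, plus strand: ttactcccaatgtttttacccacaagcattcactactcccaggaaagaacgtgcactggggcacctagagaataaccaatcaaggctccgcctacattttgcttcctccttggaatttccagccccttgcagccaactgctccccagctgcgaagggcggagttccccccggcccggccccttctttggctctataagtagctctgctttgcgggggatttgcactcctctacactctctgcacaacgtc

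TGACG was present in windows of 6 of the 8 genes (Fos, Fosb, Junb, Egr2, Atf3 and Dusp1), and in 17.7% of all 32817 promoter windows of the same length. Counted by window, as that share is, it was in 8 of the 12 windows of these genes. Egr2 has 5 of the 12, some of them overlapping. In Dusp1, 2 of the matches overlap as the full palindrome TGACGTCA, which 1.55% of all windows hold. Egr2 was the only one of the 8 with a CArG box in a window (1.47% of all windows), Fos with a TATA box (12.4%) and Fosb with the Egr motif (4.7%). By window the CArG box was in 4 of the 12, all at Egr2. The AP-1 motif (6.75% of all windows) and the palindromic estrogen response element (0.064%) had no match in the windows of these 8 genes. A match is a run of letters only, and binding was not measured. Only these windows were searched, and sequence further upstream was not. A motif without a match here can therefore still be present elsewhere at the same gene, the CArG box at Fos included. Ier2 and Egr1 had no listed window and were not searched.

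Array signals are log2 values from RMA, which per the submitters' processing notes was the summary method used and which corrects background, brings arrays to a common distribution and combines probes into probe sets. The deposited columns had medians of 6.05 and 6.02, and how many arrays were normalized together is not known. Differences are Ad-caERα minus Ad-DsRed on the log2 scale, so 1 is a 2-fold difference. A gene was called measured if the higher of its 2 values passed a floor of 5.11, the 95th percentile over 1212 probe sets for olfactory or vomeronasal receptors, which muscle is not thought to express. All 10 immediate early genes passed it on both arrays, among 13556 measured genes. With 1 array per vector no test was possible. No p-value is given, and the spread between cultures is unknown. As yardsticks from the same arrays, probe sets sharing a gene differed with an SD of 0.129 over 770 genes, and the difference over all measured genes had a 5th percentile of -0.36 and a 95th of 0.38. Esr1, the estrogen receptor α gene itself, was at a log2 signal of 7.38 with Ad-DsRed and 8.44 with Ad-caERα (2.08-fold). All 12 myotube markers, such as Myog and Acta1, were measured. Of 7 leukocyte markers on the array 5 were below the floor on both arrays (Ptprc, Csf1r, Adgre1, Lyz2 and Itgam), while Cd68 (6.38 and 6.62) and Cd3e (5.31 and 5.27) passed it. Of 5 endothelial markers Tek (6.73 and 6.60) passed it and the other 4 did not.

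The immediate early genes did not differ by 2-fold between the vectors, and they did not share a direction. By the 2-fold rule 0 of 10 were higher and 0 lower, where 0.686% of all measured genes were 2-fold apart. By a 1.5-fold rule the count was again 0 of 10, against a background of 2.71% (1.82% higher and 0.885% lower). With background shares this low, 0 of 10 does not set these genes apart from other genes. By a rule of at least 0.32 on the log2 scale Ier2 and Egr1 were lower and 0 were higher. The background for that rule was 14.1% of all measured genes, 6.76% lower and 7.34% higher. Irrespective of size, Fos, Jun, Junb, Egr1, Ier2 and Dusp1 had lower values in Ad-caERα and Fosb, Egr2, Ier3 and Atf3 higher ones, 6 against 4. Of all measured genes 48.8% were below 0 and 50.2% above, and the remaining 1.03% had identical values. For so few genes the split of the 10 was not far from that. The median difference was -0.0935 over the 10 genes and 0.0017 over all measured genes.

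**Figure D1:**
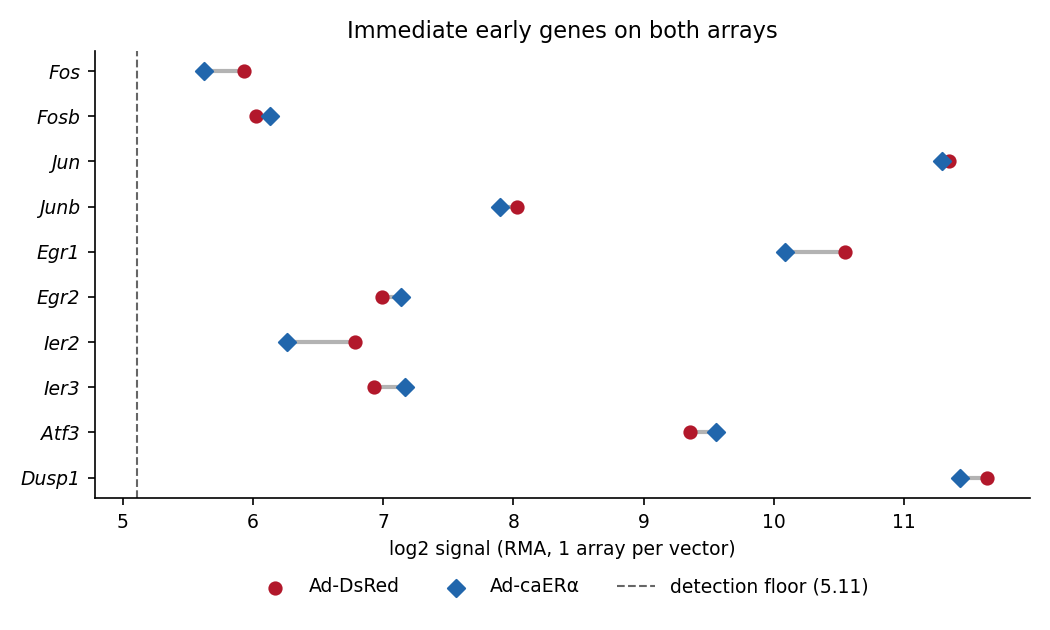
Log2 signal (x axis, RMA) of the 10 immediate early genes on the Ad-DsRed array (circles) and the Ad-caERα array (diamonds), with the detection floor of 5.11 as a dashed line. Ier2 and Egr1 have the widest gaps, both with the Ad-caERα value on the left, and levels of different genes are not comparable because each comes from its own probes.

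Fos and Jun family proteins pair through leucine zippers to form AP-1, and the differences of the 4 listed subunits were small. Fos had a log2 signal of 5.93 with Ad-DsRed and 5.62 with Ad-caERα. The Ad-caERα value was the lower one, with a difference of -0.32 (1.246-fold), just short of the threshold that Ier2 and Egr1 passed. Both values lay less than 1 log2 unit above the floor, where RMA compresses differences. The spread is also wide there: among the 2305 measured genes within 0.5 log2 units of its mean level the SD of the difference was 0.28, and 11.2% were as low. Fosb, the paralog of Fos, was at 6.02 and 6.13, a difference of 0.11 in the opposite direction. That is smaller than the SD of 0.129 seen between probe sets that share a gene. Jun was at 11.35 and 11.29, a difference of -0.06. Junb was at 8.03 and 7.90, a difference of -0.13. Jun thus lay within the same SD and Junb about at it, and for both the Ad-caERα array had the lower value. The gap between the differences of Fos and Fosb was 0.43.

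Among the 7 AP-1 partners outside the listed genes, all measured, 4 were above 0 and 3 below, with a median of 0.0542. Fosl2, which encodes the Fos-related protein Fra-2, had the largest difference of these, at 9.77 with Ad-DsRed and 10.30 with Ad-caERα (0.53, 1.44-fold). Fosl1, which encodes Fra-1, was at 9.48 and 9.13 (-0.35). The pair thus differed in opposite directions, and the Fosl2 difference was above the 95th percentile of all measured genes. Jund, the Jun family member that is usually present without stimulation, had a difference of 0.27, and Batf3, a zipper protein best known from dendritic cells, one of -0.20. By the 1.5-fold rule 0 of the 7 were apart, where 2.71% of all measured genes were.

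Egr1 and Egr2 encode zinc finger transcription factors that bind the same GC-rich site. Egr1 was at 10.55 with Ad-DsRed and 10.09 with Ad-caERα. The value was lower with the active receptor by a difference of -0.46 (1.38-fold), and 2.04% of all measured genes had a difference as low or lower. The spread of differences narrows at high signal. Among the 1552 measured genes within 0.5 log2 units of Egr1's mean level the SD of the difference was 0.21, and 0.709% were as low. Egr2, which encodes Krox-20, was at 6.99 and 7.14, a difference of 0.15, so its value was the higher one in Ad-caERα. At its level the SD over 1873 genes was 0.31, larger than that difference. The other Egr genes had differences of -0.03 for Egr3 and -0.08 for Egr4. The corepressor gene Nab1, whose product binds Egr proteins and limits their activity, was at 9.04 and 8.74 (-0.30).

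Ier2 had the lowest difference of the 10 genes and Ier3 the highest. Ier2 encodes a nuclear protein induced by serum, and its log2 signal was 6.78 with Ad-DsRed and 6.26 with Ad-caERα. The Ad-caERα value was lower, with a difference of -0.52 (1.44-fold), and 1.36% of all measured genes were as low or lower. Among the 1767 genes near its level 2.32% were as low, below the central 95% of that window, which ran from -0.49 to 0.59. Ier3, also called IEX-1, encodes a protein that acts on cell survival and on ERK, and it was at 6.93 and 7.17. Its value was higher in Ad-caERα by 0.24 (1.18-fold), a size that 13.2% of all measured genes reached or exceeded. Despite their names Ier2 and Ier3 are not close paralogs, and the gap between their differences, 0.76, spans the 10 genes.

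Atf3 encodes a stress-induced zipper protein of the ATF/CREB family that usually represses transcription. It was at 9.36 with Ad-DsRed and 9.56 with Ad-caERα. The difference of 0.20 (1.15-fold) was towards the higher value with the active receptor, and 18.2% of measured genes reached it. Atf3 is also a target of the integrated stress response, in which Atf4 raises genes of amino acid supply and stress. Of 11 measured genes of that list 10 were above 0, with a median of 0.185, and 0 reached 1.5-fold. Of all measured genes 50.2% were above 0, with a median of 0.0017, and 2.71% were 1.5-fold apart. Whether the list differs as a group was not tested. Chac1, which degrades glutathione, had a difference of 0.46 (1.37-fold) and Atf5 was at 8.56 and 8.95 (0.39). The lowest were Cebpg (-0.08), a partner of Atf4, and Nupr1 (0.08), a stress-induced chromatin protein. Atf4 itself had a difference of 0.18.

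Dusp1 encodes the nuclear phosphatase MKP-1, which inactivates p38, JNK and ERK. Its log2 signal was 11.64 with Ad-DsRed and 11.43 with Ad-caERα. The Ad-caERα value was lower by a difference of -0.21 (1.15-fold), which put Dusp1 above the lowest 15.6% of all measured genes. Among the 523 genes near its level the SD was 0.19 and 7.07% were as low, inside the central 95% of -0.28 to 0.37. Of the 10 other dual specificity MAP kinase phosphatase genes, all measured, 4 were above 0 and 6 below, with a median of -0.0791 and 0 past the 1.5-fold rule. Over all measured genes 48.8% were below 0 and 2.71% past that rule. Dusp7, a cytoplasmic phosphatase of ERK, was at 9.59 and 10.11 (0.52), and Dusp8 was next at 0.15. Dusp4, a nuclear phosphatase induced by ERK, was at 9.61 and 9.26 (-0.35), and Dusp9 had a difference of -0.26.

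**Figure D2:**
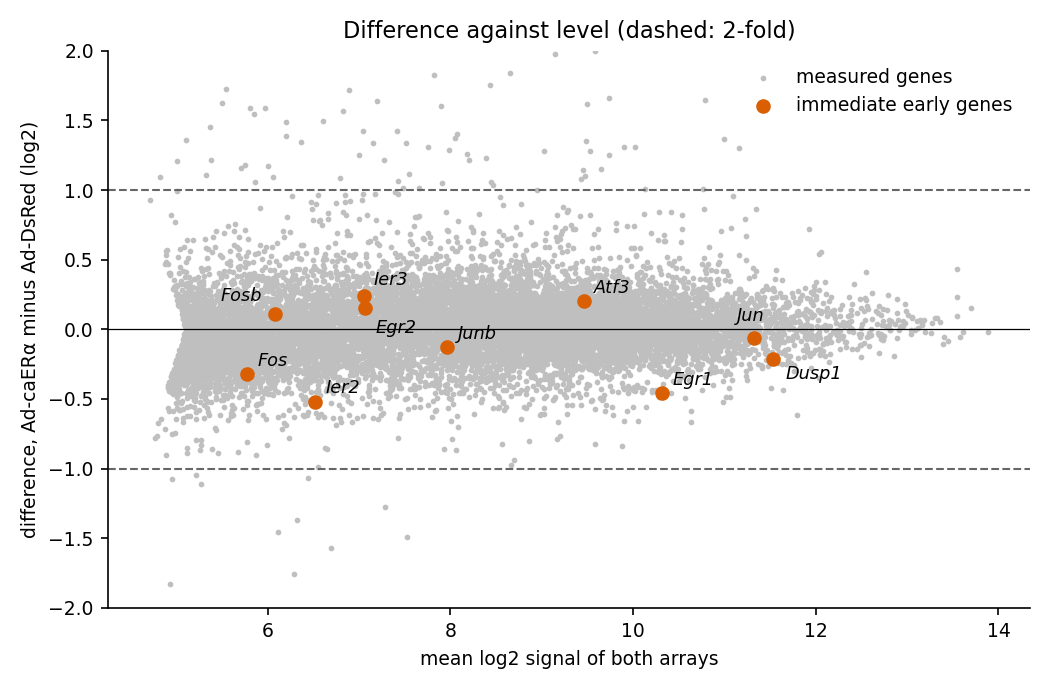
Difference (y axis, Ad-caERα minus Ad-DsRed, log2) against the mean log2 signal of both arrays (x axis) for the measured genes in grey and the 10 immediate early genes in orange, with 2-fold as dashed lines. Egr1 (-0.46) and Ier2 (-0.52) lie at the lower edge of the cloud at their levels and the other 8 lie inside it; 14 measured genes beyond 2 on the log2 scale are outside the plotted range.

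Feedback regulators of ERK other than phosphatases had a median of -0.0995 over 17 measured genes, 12 of them below 0, and 0 reached 1.5-fold. Of all measured genes 48.8% were below 0 and 2.71% were 1.5-fold apart. Sprouty and Spred proteins restrain the pathway between receptor and Raf, and their measured genes Spry1, Spry2, Spry4, Spred1, Spred2 and Spred3 all lay between -0.16 and 0.09. Spry3 was below the floor. Etv1, an ETS factor whose mRNA follows ERK activity, was at 7.47 with Ad-DsRed and 6.95 with Ad-caERα (-0.52, 1.43-fold), and Nf1, a Ras GTPase-activating protein, was at -0.26. Lztr1 (0.24), an adaptor for Ras degradation, and Errfi1 (0.22), an inhibitor of the EGF receptor, were highest.

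Differences of the kinases themselves were small. In the ERK cascade 11 of 17 measured genes were above 0 and 6 below, with a median of 0.0743, and 8 listed genes were not analysed here. The scaffold gene Ksr1 (0.33) and the kinase gene Map2k2 (0.23) were highest, and Nras (-0.24) and Braf (-0.14) lowest. In the JNK and p38 cascades 6 of 15 were above 0 and 9 below, with a median of -0.0301. Mapkapk2 (0.24), a substrate kinase of p38, and Map2k4 (0.14) were highest and Map3k20 (-0.26) was lowest. Map2k6 (5.28 and 5.04) passed the floor only with Ad-DsRed, so it could be counted only as lower and its direction is not established. The factors that act at immediate early promoters had a median of -0.0324 over 16 genes, from the coactivators Ep300 (-0.24) and Crebbp (-0.21) to Elk3 (0.15) and Crem (0.20), and Srf was at 0.07. No gene of these 3 lists reached 1.5-fold, where 2.71% of all measured genes did. Of all measured genes 50.2% were above 0 and 48.8% below.

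Growth factor receptors upstream of ERK were mostly at lower values in Ad-caERα, with 11 of 14 measured genes below 0 and a median of -0.111. None reached 1.5-fold. The share below 0 over all measured genes was 48.8%, and 2.71% were 1.5-fold apart. Met, the receptor for hepatocyte growth factor, was at 9.87 with Ad-DsRed and 9.29 with Ad-caERα (-0.57, 1.49-fold). Erbb3, a neuregulin receptor, was at 9.13 and 8.59 (-0.54). These were the lowest of the list, and Fgfr3 (0.51) and Ddr1 (0.07) were the highest. Markers of undifferentiated myoblasts, the unfused cells that such a culture can still hold, were looked at beside these values in a list that includes Met. Of 7 measured markers out of 8, 6 were below 0, among them Mki67 (-0.44). Past 1.5-fold 1 was lower, Vcam1 (-0.94), and 1 higher, Myf5 (0.71), and Pax3 was below the floor. Their summed linear signal was 9719 with Ad-DsRed and 8218 with Ad-caERα. The sum over the 12 myotube markers was 33355 and 32517. Of these 12 markers 11 were also below 0, with a median of -0.0994, and 0 were past 1.5-fold. The part of these markers in the differences of the immediate early genes was not tested, and in such RNA fewer cells of a type and less RNA per cell cannot be told apart.

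**Figure D3:**
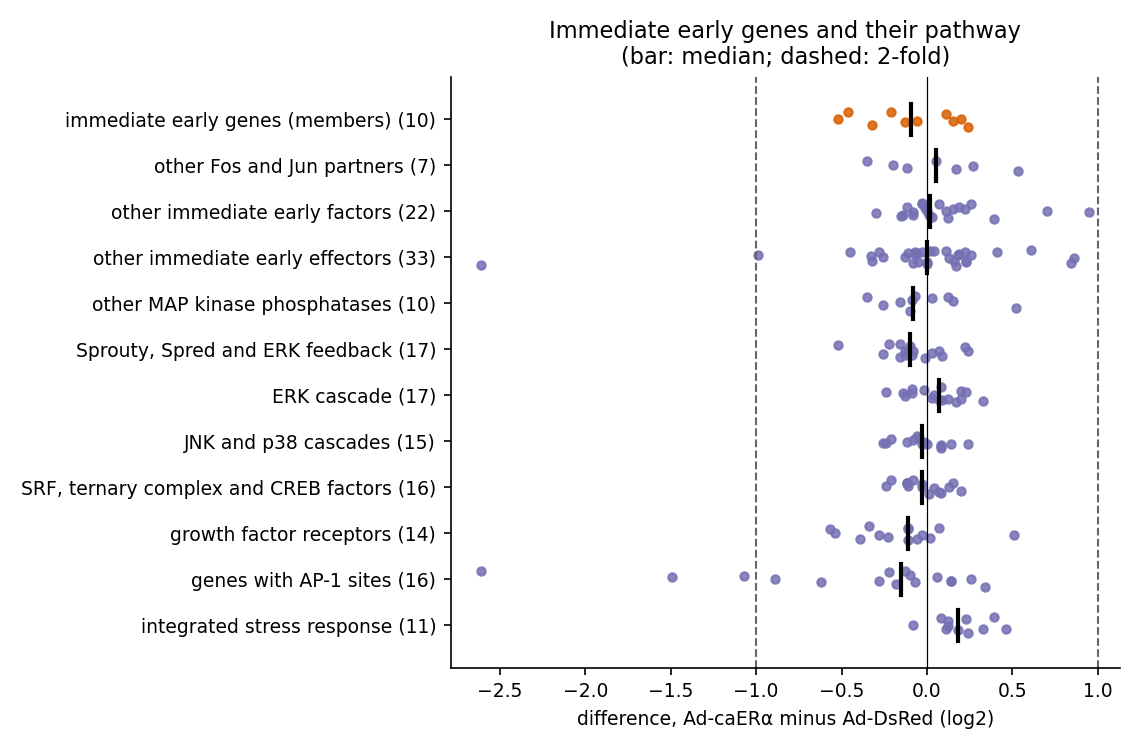
Difference (x axis, Ad-caERα minus Ad-DsRed, log2) of each measured gene in the immediate early set (orange) and in 11 lists of the pathway (purple), with the number of genes in brackets, the median as a black bar and 2-fold as dashed lines. The immediate early genes run from -0.52 to 0.24, and the genes past 2-fold are Ccl2, which stands in 2 lists, Mmp3 and Mmp12.

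Larger differences were found among immediate early genes outside the 10. Their lists were drawn up with earlier results of these data known, so the counts are a description only. Of 22 other immediate early transcription factor genes, all measured, 13 were above 0 and 9 below, with a median of 0.0201. Nr4a1, an orphan nuclear receptor also called Nur77, was at 8.07 with Ad-DsRed and 9.02 with Ad-caERα (0.95, 1.93-fold). Cebpb, a zipper protein of the C/EBP family, was at 7.07 and 7.77 (0.70, 1.62-fold). These 2 were higher by the 1.5-fold rule, and 0 of the 22 were lower. Over all measured genes 1.82% were higher and 0.885% lower by that rule. The lowest were Nab1 and Npas4 (-0.15), a neuronal activity factor.

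Of 33 measured signalling and effector genes of the immediate early class 17 were above 0 and 16 below, with a median of 0.0049. Past 1.5-fold 3 were higher and 2 lower, where 1.82% of all measured genes were higher and 0.885% lower. This list too was drawn up with earlier results known, so its counts are no evidence about the class. Gadd45g, a stress sensor that binds p38 and JNK activators, was at 8.86 and 9.72 (0.86, 1.81-fold). Nfkbia, the inhibitor IκBα, was at 8.86 and 9.70 (0.84, 1.79-fold), and the kinase gene Pim1 was at 8.62 and 9.23 (0.61, 1.53-fold). The lower genes both encode chemokines. Ccl2 was at 10.04 and 7.43 (-2.61, 6.11-fold lower) and Cxcl1 at 7.04 and 6.05 (-0.99, 1.98-fold lower). The set therefore held genes at both ends while its median was near that of all measured genes.

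Genes described as carrying AP-1 sites in fibroblasts had a median of -0.155 over 16 measured members, 11 of them below 0. Being 2-fold lower was found for 3 members and 2-fold higher for 0. Of all measured genes 0.0959% were 2-fold lower and 0.59% higher, but the list was drawn up when low values of Ccl2, Mmp3 and Mmp12 were already known, so its count is a description and no evidence about genes with AP-1 sites. They were Ccl2, Mmp3 (8.27 with Ad-DsRed and 6.78 with Ad-caERα, 2.80-fold lower) and Mmp12 (6.97 and 5.90, 2.10-fold lower), the last 2 encoding matrix metalloproteinases. Mmp10 was at 5.91 and 5.29 (1.54-fold lower). Mmp13, at 5.56 with Ad-DsRed, had a signal under the floor with Ad-caERα. A gene that passes the floor only with Ad-DsRed can be counted only as lower. That holds for Mmp13 and for Mmp9 (5.13 and 4.84), which are both among the 11 below 0. The higher floors, described below, leave out both genes and also Mmp10. With either of them the median of the list was -0.103. Hmox1 (0.34), which degrades heme, and Tgfb1 (0.26) were highest. Ccl2, Plaur and Il6 are in both this list and that of the effectors.

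**Figure D4:**
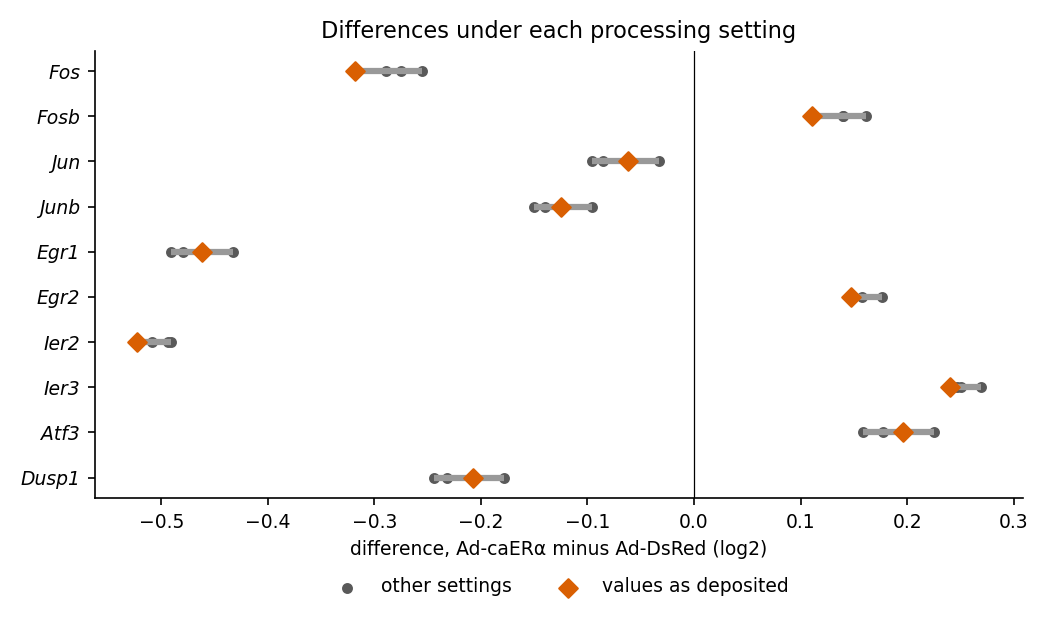
Difference (x axis, Ad-caERα minus Ad-DsRed, log2) of each immediate early gene on the values as deposited (orange diamonds) and under the other floors, normalizations and probe set rules (grey points, with their range as a bar). Each of the 10 genes keeps its side of 0 under the settings shown.

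Across 11 pathway lists holding 196 genes besides the 10, 174 were measured, of which 83 were above 0 and 91 below. None was 2-fold higher and 3 were 2-fold lower (Ccl2, Mmp3 and Mmp12). Of all measured genes 0.59% were 2-fold higher and 0.0959% lower. Low values of these 3 genes were known when the lists were drawn up, so the count is a description only. The median difference was -0.0157.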

How the data were processed

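The deposited table gives a log2 signal for each probe set on 2 arrays, 1 per vector, which the authors made with Affymetrix Expression Console and RMA, per the submitters' processing notes. The sources used here give no versions, probe filter or number of arrays in the normalization. Quantile normalization hides a change in total mRNA. Of 35556 probe sets, the platform annotation named 1 gene for 21789, several for 1621, which were left unnamed, and none for 12146. Gene IDs of 21698 matched RefSeq (GRCm38.p6). A gene with several probe sets took the one with the highest mean. The rules of size were 2-fold, 1.5-fold and 0.32 on the log2 scale, and percentages of genes near a level used a window of 0.5 log2 units to either side.

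The members and lists were chosen with earlier results of these data known. Named were all 10 genes, Esr1 and, per list, genes past 1.5-fold and the 2 highest and 2 lowest; Atf4, Srf, Egr3, Egr4, Sprouty and Spred genes and the markers were added for what they encode. Genes of like pattern were not ranked, since 2 arrays give 1 difference per gene. Array number limits the precision. The code was tested on simulated data. Alternatives covered the floor, normalization, probe set rule, fold threshold and list summary. Python 3.11.15, numpy 2.4.6, pandas 2.3.3, statsmodels 0.14.6 and matplotlib 3.10.9 were used.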

Additional observations from a re-analysis of the deposited data

How the results depend on the processing

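No paired analysis was possible because there is 1 array per vector, and no array could be left out. All 10 immediate early genes kept their sign under the other floors, normalizations and probe set rules in which they were measured. In the 30 recalculations by centring, loess and quantile normalization they moved by less than the SD of 0.129 between probe sets sharing a gene. Centring moves every gene by the same small gap between the array medians. The loess and quantile steps were applied to values that RMA had already normalized, so these 30 are a weak check. Ier2 ranged from -0.52 to -0.49, Egr1 from -0.49 to -0.43 and Jun, the smallest, from -0.10 to -0.03. The other 47 recalculations could not move them: a floor only decides whether a gene is counted, each gene has 1 probe set, and all lie above the floor of 5.11. Fos was not measured with the higher floors (6.16 and 6.04), nor Fosb with the former. The threshold set the counts: 2 of the 10 were lower at 0.32 on the log2 scale, where 995 measured genes were higher and 916 lower, and at 1.5-fold 247 and 120. The median of the Fos and Jun partners was 0.218 with either higher floor, when fewer genes were left. That of the immediate early effectors changed sign without a floor or after quantile normalization, down to -0.0097. The mean over genes with AP-1 sites was -0.421, in a list that holds Ccl2, Mmp3 and Mmp12.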

Other observations

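The metalloproteinase genes with low values were neighbours. This set was chosen after the values were seen. In the RefSeq gene order of chromosome 9 (GRCm38.p6) a cluster holds 10 Mmp genes, of which 4 were measured: Mmp13, Mmp12, Mmp3 and Mmp10, with differences of -0.89, -1.07, -1.49 and -0.62. The Mmp13 value is from a signal below the floor in Ad-caERα. The 6 other genes of the cluster were below the floor on both arrays, among them Mmp1b and Mmp1a, which lie between these 4, and their signals give no direction. Mmp9, on another chromosome, also passed the floor only in Ad-DsRed, which fixes its direction as lower, by at least 1.02-fold.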
